A study of Mus musculus with 6 samples.

Results

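This account covers 38 genes of protein folding in 4T1-T cells, 20 of them for chaperones and helpers of the cytosol and mitochondria and 18 for the folding and quality control machinery of the endoplasmic reticulum (ER). They were chosen by name, among 15973 protein-coding genes in the table of the authors' comparison, and all 38 were found there. The cytosolic set holds 3 mitochondrial chaperones. 4T1-T is a VM-competent sub-clone of the mouse mammary carcinoma line 4T1, where VM (vasculogenic mimicry) means that tumor cells form vessel-like channels, so every library came from 1 sub-clone. The cells were serum-starved overnight, given fluorescent acetylated low-density lipoprotein (acLDL) at 10 ug/mL for 4 h, washed, and returned to growth medium for 1 h. Flow sorting then took the 25% of cells with the most label (acLDL-high) and the 25% with the least (acLDL-low). There was no culture without acLDL and no culture under heat or a drug that disturbs folding. The sort was done on 3 occasions, and the replicate number pairs the acLDL-high and acLDL-low library of 1 occasion, giving 3 pairs and 6 polyA RNA libraries.

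Many chaperones hold unfolded protein chains and release them by cycles of ATP binding. In the cytosol, the HSP70 and HSP90 families and their J-domain and co-chaperone partners are under the control of HSF1, a transcription factor that is released when unfolded protein accumulates and that binds the heat shock element in its target promoters. In the ER, the HSP70 protein BiP (Hspa5) keeps the stress sensors IRE1, PERK and ATF6 inactive until it is drawn away by unfolded protein. ATF6 and the spliced form of XBP1 then raise transcription of ER chaperones, of disulfide isomerases and of the machinery that returns misfolded protein to the cytosol for degradation (ERAD), in part through the ER stress response element. In tumor cells both systems are known to be active without added stress.

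Promoter letters are shown here because both systems are known to act through short elements near the start sites of their targets. RefSeq promoter windows of GRCm38.p6, from 250 bases before to 50 after a start site, could be matched by symbol to 31 of the 38 members, 15 cytosolic or mitochondrial and 16 ER. Hsf1, Hspa8, Hspa9, Hsp90aa1, Hsp90ab1, Hyou1 and Manf had no window. The ER stress response element (ERSE, searched as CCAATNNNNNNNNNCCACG on both strands) lay in the window of 7 of 16 ER genes, against 37 of 27025 genes, 0.137%, in all RefSeq windows. It lay in none of the 15 cytosolic genes' windows. The 8 sites follow, 5′ to 3′ in the direction of the motif, with its fixed letters in capitals.
Hspa5, chr2:34772025-34772043: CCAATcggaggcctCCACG
Hsp90b1, chr10:86705638-86705656: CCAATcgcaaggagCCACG
Hsp90b1, chr10:86705533-86705551: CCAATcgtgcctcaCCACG
Calr, chr8:84847075-84847093: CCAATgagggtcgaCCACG
Canx, chr11:50325800-50325818: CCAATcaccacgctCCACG
Pdia6, chr12:17266491-17266509: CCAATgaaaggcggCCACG
Dnajc3, chr14:118937827-118937845: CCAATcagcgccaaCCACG
Creld2, chr15:88819520-88819538: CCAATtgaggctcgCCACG

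The second form of this element (ERSE-II, searched as ATTGGNCCACG on both strands) lay in 2 of 16 ER windows, those of Herpud1 and Dnajb11, and in 12 of 27025 genes, 0.0444%, in all windows. The letters before the start site of Herpud1 (chr8:94386179-94386428, plus strand, GRCm38.p6) are printed because this is the member that differed between the populations, with the ERSE-II match, which begins 52 bases before the start site, in capitals.
Herpud1: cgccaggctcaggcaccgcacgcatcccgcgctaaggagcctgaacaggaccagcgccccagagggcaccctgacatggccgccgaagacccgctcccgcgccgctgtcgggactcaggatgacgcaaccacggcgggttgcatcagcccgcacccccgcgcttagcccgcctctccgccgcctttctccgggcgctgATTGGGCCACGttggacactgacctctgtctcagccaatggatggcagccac

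The heat shock element (HSE, searched as GAANNTTCNNGAA on both strands) lay in a window of 4 of 15 cytosolic genes, Chordc1, Hspd1, Hspe1 and Hsph1, against 179 of 27025 genes, 0.662%, in all windows, and in none of the 16 ER genes. Its matches in Chordc1 overlap each other, and the mitochondrial partners Hspd1 and Hspe1, which lie head to head, share theirs. The XBP1 core TGACGTGG was in no member's window and in 193 of 27025 genes, 0.714%, overall. A match of letters is not evidence of binding, and these windows are short. Only exact matches were counted, so an element with a changed letter was missed. A window without a match may still hold such an element. A match from each start region follows, with the fixed letters in capitals.
Chordc1, chr9:18292263-18292275: GAAcgTTCggGAA
Hspd1 and Hspe1, chr1:55088059-55088071: GAAggTTCtaGAA
Hsph1, chr5:149636288-149636300: GAActTTCcaGAA

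The libraries were deep, with 70263372 to 94216786 reads counted on genes. Levels are given as CPM, the count divided by the TMM-scaled library total in units of 1e+06 reads, and 3 counts stand for 0.0323 to 0.0429 CPM. Of the 15973 genes, 12572 passed the low-count filter and were tested, among them 37 members, 19 cytosolic or mitochondrial and 18 ER. The exception was Hspa1a. A gene was called where its adjusted p in edgeR's quasi-likelihood test, with the pair as a block, was under 0.05. Of all genes tested, 3.43% were called higher and 1.32% lower in acLDL-high cells. All 8 mammary epithelial markers were detected, while 7 of 8 markers each of macrophage, fibroblast and endothelium were under 1 CPM on average. The macrophage markers Adgre1 and C1qa, the fibroblast markers Col3a1, Lum and Thy1, and the endothelial markers Emcn and Cldn5 were at 0 counts in every library. The summed macrophage markers were 7.91 to 10.8 CPM in acLDL-low and 6.89 to 8.27 CPM in acLDL-high libraries, nearly all of it Cd68, a lysosomal protein gene. The summed fibroblast markers were 29.0 to 41.1 and 29.8 to 43.3 CPM, nearly all of it Pdgfra, and the summed endothelial markers 1.56 to 2.64 and 1.51 to 2.32 CPM.

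The folding genes differed little between the populations. None of the 37 members tested was called higher in acLDL-high cells and 1, Herpud1 of the ER set, was called lower, against a background of 3.43% and 1.32%. Across the members the median log2 fold change (acLDL-high minus acLDL-low) was 0.01, with a median size of 0.03, against 0.00 and 0.07 over all genes tested. The median standard error (SE) was 0.04 for members and 0.06 for all genes. Each SE and interval draws on a spread moderated across all genes tested, not on the 3 pairs of a gene alone. For 34 of 37 members the 95% interval of the log2 fold change lay wholly within 0.25 of 0, which was so for 60.9% of all genes tested. This background was not matched for level. It was also so for 102 of 112 genes tested in the further folding lists given below. The 3 members with wider or lower intervals were Hspb1, Herpud1 and Dnajb9. By direction alone, acLDL-high exceeded acLDL-low in every pair for 7 of 37 members (Hspa4, Hsph1, Dnaja1, Dnajb4, Calr, Pdia3 and Dnajc3), against 20.9% of all genes tested. It was the lower in every pair for 4 (Hspa4l, Hspa9, Hspa5 and Herpud1), against 19.4%.

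**Figure D1:**
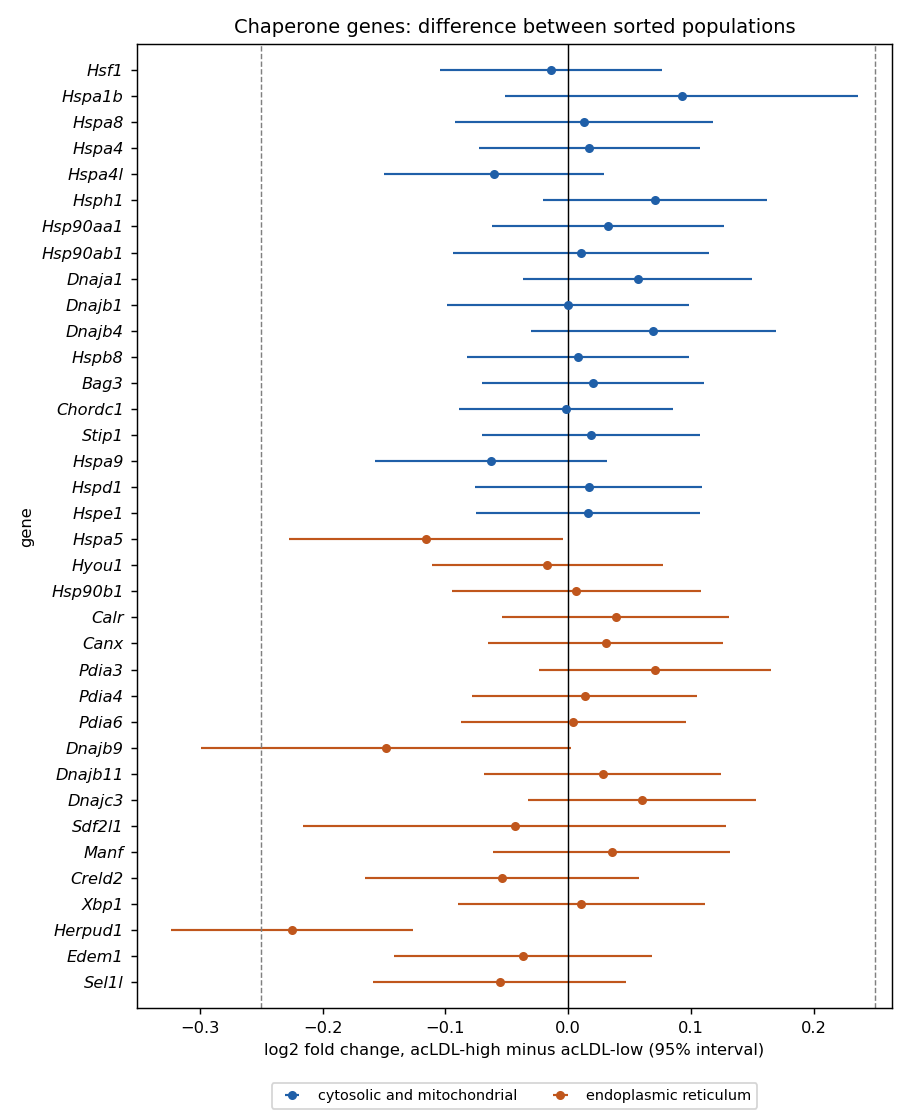
Fitted log2 fold change (acLDL-high minus acLDL-low, horizontal axis) of 36 members with its 95% interval (bars), cytosolic and mitochondrial genes in blue and ER genes in orange, with dashed lines at -0.25 and 0.25. Herpud1 is the point farthest left, at -0.22. Hspb1 (0.71, interval -0.79 to 2.22) is left out because its interval exceeds the axis.

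In the cytosolic and mitochondrial set, none of 19 genes tested was called by edgeR in either direction. None reached an unadjusted p under 0.05 either, in edgeR (2435 of 12572 genes tested, 19.4%) or in DESeq2 (1540 of 15973 genes). The median log2 fold change was 0.02, and within the pairs the medians were 0.02, -0.01 and 0.03. Apart from Hspb1, the 18 fold changes ran from -0.06 to 0.09, and their intervals from -0.16 to 0.24, so that a rise of more than 17.8% or a fall of more than 10.3% lay outside every interval. Summed over the 20 genes, the level was 9942, 14232 and 10410 CPM in acLDL-low libraries 1 to 3 and 9998, 14028 and 10670 CPM in the matching acLDL-high libraries. In each pair both populations stood close together, while occasion 2 stood above the others.

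Hsf1, the regulator of the heat shock response, was at 72.9, 104 and 89.1 CPM in acLDL-low libraries and at 73.9, 104 and 85.8 CPM in acLDL-high libraries. Its ranges overlapped almost wholly, and its log2 fold change was -0.01 (SE 0.04, adjusted p = 0.900). HSF1 activity depends on the protein's state, which transcript levels do not measure.

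Hspa1b and Hspa1a encode the stress-inducible HSP70. Hspa1b was at 17.8, 12.9 and 16.1 CPM in acLDL-low and 19.9, 12.5 and 17.8 CPM in acLDL-high libraries. It was higher in 2 pairs and lower in 1, the groups overlapped, and its log2 fold change of 0.09 (SE 0.07, interval -0.05 to 0.24, adjusted p = 0.491) was the highest of the set after Hspb1. Hspa1a had 25 counts in all, 1 to 6 in each library, against 7647 for Hspa1b. The gene pair lies on chromosome 17 with 62.3% of the 50-base stretches of Hspa1b also present in Hspa1a, and their promoter windows differ at 4 of 300 positions (98.7% identity). How reads that match both were assigned is not given in the sources used here, so the split between them is uncertain.

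Hspa8, the constitutive HSP70 of the cytosol, was at 1089, 1636 and 1207 CPM in acLDL-low and 1052, 1599 and 1314 CPM in acLDL-high libraries, overlapping, with a log2 fold change of 0.01 (adjusted p = 0.922). Its value is also uncertain in level, since 52.7% of its 50-base stretches recur elsewhere and the processed pseudogene Gm15459 alone carried 234955 counts beside the 619791 of Hspa8. The HSP110 genes encode nucleotide exchange factors that reset HSP70. Hsph1 was at 0.07 (higher in all 3 pairs, adjusted p = 0.398), Hspa4 at 0.02 and Hspa4l at -0.06 (lower in all 3 pairs, adjusted p = 0.467).

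Hsp90ab1, the constitutive HSP90, had the highest level per length of all members, 1795 CPM per kilobase of exon. It was at 4459, 6861 and 4808 CPM in acLDL-low and 4589, 6686 and 4897 CPM in acLDL-high libraries, and its log2 fold change was 0.01 (SE 0.05, adjusted p = 0.940). The ranges overlapped and occasion 2 was the highest in both populations. Its inducible paralog Hsp90aa1 was at 0.03 (adjusted p = 0.745), with 58.5% of its 50-base stretches found elsewhere.

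None of the helpers of HSP70 and HSP90 was called by edgeR. Of the J-domain genes, which hand clients to HSP70, Dnaja1 was at 0.06, Dnajb1 at 0.00 and Dnajb4 at 0.07, the last with an interval of -0.03 to 0.17. Of the 50-base stretches of Dnaja1, 28.8% recur elsewhere. Bag3, a nucleotide exchange factor of HSP70 that serves selective autophagy, was at 0.02. The HSP90 co-chaperones Stip1, which links HSP70 to HSP90, and Chordc1 were at 0.02 and 0.00. Hspb8, a small heat shock protein that works with BAG3, was at 0.01. The 7 adjusted p-values ran from 0.453 for Dnajb4 to 1.00 for Dnajb1.

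Hspb1, the small heat shock protein HSP27, had almost no counts in these cells. However, 51.6% of its 50-base stretches recur in the processed pseudogene Hsp25-ps1, so its level is uncertain too. Its counts were 34, 0 and 4 in acLDL-low and 22, 22 and 12 in acLDL-high libraries, under 0.45 CPM in each. The log2 fold change of 0.71 was the largest of the members, but its SE was 0.69 (interval -0.79 to 2.22, adjusted p = 0.626), and it was 2.91 without replicate 1 (adjusted p = 0.0493) and -0.22 without replicate 2. Single occasions decide that value, and no direction can be read at this depth.

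The mitochondrial chaperones take up imported chains. Hspa9, the mitochondrial HSP70, had the lowest fold change of the cytosolic and mitochondrial set, with 933, 1073 and 1037 CPM in acLDL-low and 866.5, 1031 and 1019 CPM in acLDL-high libraries. It was lower in acLDL-high cells in all 3 pairs while the groups overlapped, and the log2 fold change was -0.06 (SE 0.04, adjusted p = 0.477). The chaperonin genes Hspd1 and Hspe1 were both at 0.02. Hspe1, the smaller subunit, was at 62.0, 117 and 54.1 CPM in acLDL-low and 63.9, 115 and 55.1 CPM in acLDL-high libraries, with occasion 2 far above the others in both populations. The exons of Hspd1 and Hspe1 overlap on opposite strands, and the strand setting of the counting is not given in the sources used here. Of the 50-base stretches of Hspd1, 44.8% recur elsewhere.

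In the ER set, 0 of 18 genes were called higher by edgeR and 1 lower, against 3.43% and 1.32% of all genes tested. An unadjusted p under 0.05 was found for 2, Herpud1 and Hspa5, against 19.4% of all genes tested. DESeq2 gave the same counts. Over all the alternatives, 0 to 3 ER genes had an unadjusted p under 0.05, too few to set their share apart from that of all genes. The median log2 fold change was 0.01, and within the pairs it was -0.05, 0.01 and 0.05, with 5, 11 and 12 of 18 genes higher in acLDL-high cells, against 54.8%, 47.4% and 49.8% of all genes tested. The fold changes ran from -0.22 to 0.07, and no interval reached a rise of more than 12.1%. Summed over the 18 genes, the level was 6273, 7920 and 6056 CPM in acLDL-low and 5827, 7866 and 6187 CPM in acLDL-high libraries, lower in acLDL-high in pairs 1 and 2 and higher in pair 3.

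Herpud1, which encodes a membrane protein that organises the ERAD complex at the ER, was lower in acLDL-high cells. It lies on chromosome 8 (chr8:94386438-94395377, plus strand, mm10, GENCODE M21), and its exons overlap no other gene. Herpud1 was at 59.1, 139 and 89.4 CPM in acLDL-low and at 47.1, 125 and 77.9 CPM in acLDL-high libraries. The groups overlapped because the occasions differed more than the populations, but within each pair acLDL-high was the lower, by a log2 difference of -0.33, -0.16 and -0.20. The fitted log2 fold change was -0.22 (SE 0.05, interval -0.32 to -0.13, adjusted p = 0.0145), a change of -14.4% (interval -20.1 to -8.38%). The call was lost without replicate 1 (-0.18, adjusted p = 0.05004) and without replicate 3 (-0.24, adjusted p = 0.116), and without the block it had an adjusted p of 1.00 at -0.20.

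The other ERAD members were not called. Edem1, a lectin that directs misfolded glycoproteins to degradation, was at -0.04 (adjusted p = 0.738). Sel1l, the adaptor of the ERAD ubiquitin ligase, was at -0.06 (adjusted p = 0.574). Both differed in sign between pairs.

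Hspa5, the ER HSP70 BiP, had the highest level per length of the ER genes, 545 CPM per kilobase of exon. It was at 2116, 2866 and 2182 CPM in acLDL-low and 1786, 2744 and 2122 CPM in acLDL-high libraries. The groups overlapped, acLDL-high was the lower in all 3 pairs, and pair 1 was the widest apart with a log2 difference of -0.24 against -0.06 and -0.04. The log2 fold change of -0.12 (SE 0.05, interval -0.23 to -0.0039) had an unadjusted p of 0.0436 and an adjusted p of 0.239. Without replicate 1 it was -0.05.

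None of the partners of BiP was called by edgeR. Hyou1, its exchange factor, was at -0.02 and Hsp90b1, the ER HSP90, at 0.01. Of its J-domain partners, Dnajb9 was at -0.15, Dnajb11 at 0.03 and Dnajc3 at 0.06. Dnajb9 encodes ERdj4, which is known to restrain IRE1, and is a target of XBP1. It was at 32.2, 33.8 and 37.8 CPM in acLDL-low and 27.3, 27.1 and 40.4 CPM in acLDL-high libraries, lower in acLDL-high in pairs 1 and 2 and higher in pair 3. Its interval of -0.30 to 0.0020 left its direction undecided (adjusted p = 0.265).

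**Figure D2:**
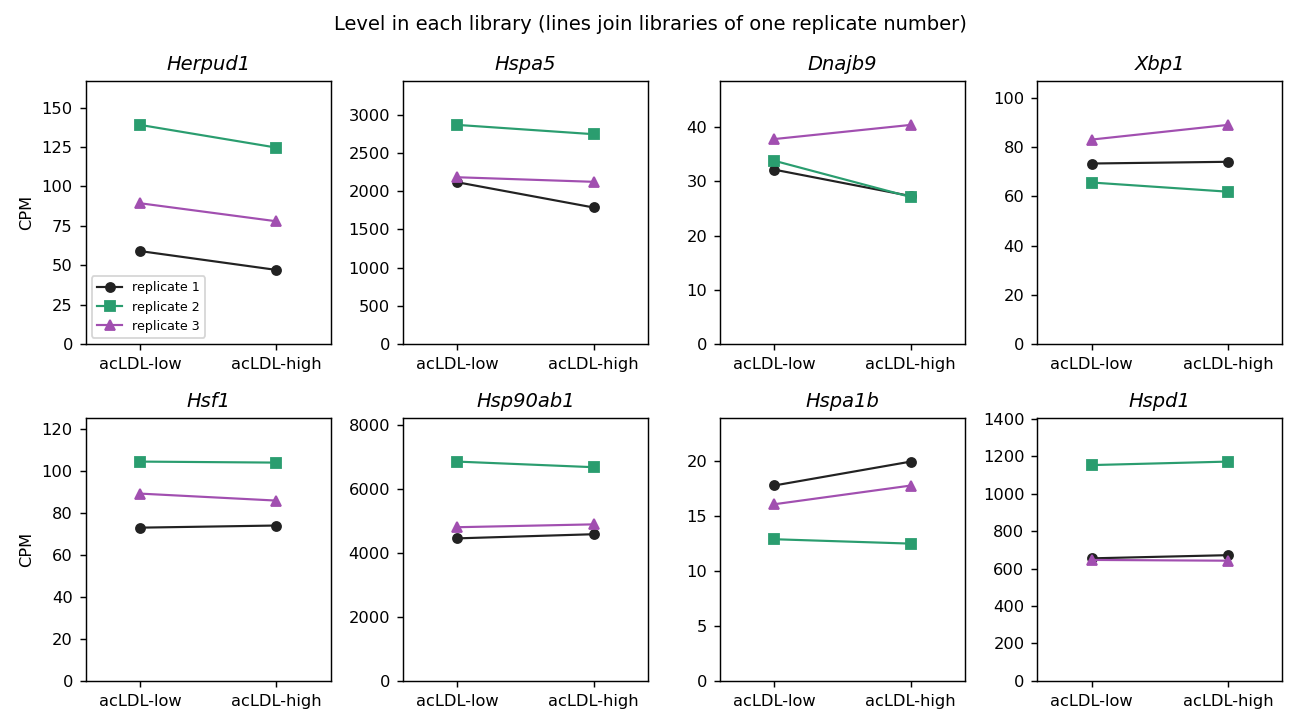
CPM (vertical axes, each from 0) of 8 members in the acLDL-low and acLDL-high library of each pair, joined by lines, with color and symbol for the replicate number. The 3 lines of Herpud1 fall, from 139 to 125 CPM in pair 2 for example, and the lines of Hsp90ab1 and Hspd1 are nearly level, with pair 2 on top.

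The lectin cycle retains glycoproteins in the ER until they fold. Its members Calr, Canx and Pdia3 were at 0.04, 0.03 and 0.07. Pdia3, the disulfide isomerase of the cycle, had the highest fold change of the ER set, with 470, 544 and 426 CPM in acLDL-low and 474.5, 568 and 468 CPM in acLDL-high libraries. It was higher in all 3 pairs, the groups overlapped, and the adjusted p was 0.416. The other isomerases, Pdia4 and Pdia6, were at 0.01 and 0.00.

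Of the small proteins induced by ER stress, Manf, a secreted protein that binds BiP, was at 0.04, Creld2 at -0.05 and Sdf2l1, a partner of ER J-domain proteins, at -0.04. The 3 adjusted p-values ran from 0.616 to 0.827. Xbp1, the transcription factor made active by IRE1 splicing, was at 73.3, 65.6 and 83.0 CPM in acLDL-low and 74.0, 61.9 and 89.0 CPM in acLDL-high libraries. The ranges overlapped and the log2 fold change was 0.01 (SE 0.05, adjusted p = 0.934). Gene counts do not separate the spliced form from the unspliced one.

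**Figure D3:**
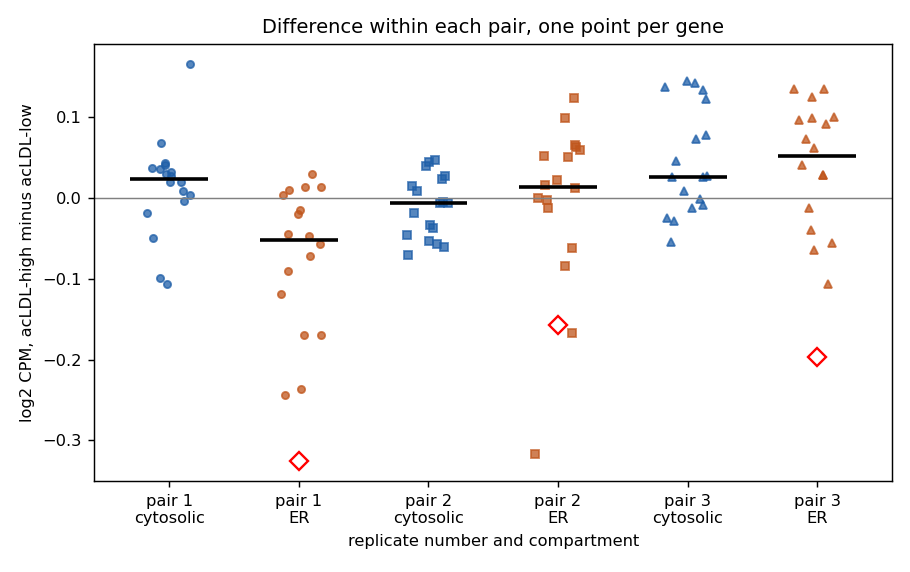
Log2 difference in CPM (acLDL-high minus acLDL-low, vertical axis) within each pair, 1 point per gene, for 18 cytosolic and mitochondrial genes (blue, without Hspb1) and 18 ER genes (orange), with black bars for medians and a red diamond for Herpud1. The ER medians are -0.05, 0.01 and 0.05 in pairs 1 to 3, and the cytosolic ones 0.02, -0.01 and 0.03.

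Sorted by promoter letters, the 7 ER genes with an ERSE match had a median log2 fold change of 0.01, from -0.12 for Hspa5 to 0.06 for Dnajc3, and none was called by edgeR. The 7 with a window but neither element had a median of -0.04, from -0.15 to 0.07, and none was called. The ERSE-II genes parted, Herpud1 at -0.22 and Dnajb11 at 0.03. The 4 HSE genes ran from 0.00 to 0.07, with a median of 0.02. The 10 cytosolic genes tested with a window but no HSE match also had a median of 0.02, from -0.06 to 0.71 (Hspb1). None of either group was called by edgeR.

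In 7 further lists of 115 genes, 112 were tested, none was called by edgeR, 8 had an unadjusted p under 0.05 (19.4% of all genes tested had), and the median log2 fold change was 0.00. DESeq2 called 1 of them, the mitochondrial protease Lonp1 at -0.14. The medians were -0.01 for 28 other cytosolic chaperones, -0.01 for 13 subunits of the chaperonin TRiC and of prefoldin, -0.05 for 11 genes of the mitochondrial unfolded protein response, 0.03 for 18 other ER folding genes, 0.01 for 17 other ERAD genes, 0.02 for 17 genes of the ER translocon, and 0.01 for 8 sensors and proteases of the unfolded protein response. The nearest to a call in edgeR, named after its values were seen, was Ero1lb, an oxidase that recharges disulfide isomerases, at 0.27 (adjusted p = 0.0501), higher in all 3 pairs.

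Genes of some other lists did differ between the populations. Of 15 G2/M genes, 9 were called higher in acLDL-high cells, against 3.43% of all genes tested. Cdk1 was at 0.43, Top2a at 0.45 and Ccnb1 at 0.49. The summed level of the 15 genes rose in each pair, from 3178 to 3474, 3043 to 3977 and 2587 to 3184 CPM. Across pairs the groups nearly touched, at 3178 CPM in acLDL-low and 3184 CPM in acLDL-high libraries. None of 10 S phase genes was called by edgeR, and 2 had an unadjusted p under 0.05, near the share of all genes tested. The pairs disagreed for this list. Its medians within pairs 1 to 3 were 0.20, -0.22 and -0.04, with 10, 1 and 3 of 10 genes higher in acLDL-high cells. Of 10 immediate early genes 4 were called higher (Fos, Junb, Ier3 and Dusp1) and none lower. The list was mixed, with Jun at -0.06, Ier2 at -0.06 and Egr1 at -0.16. Egr1 was lower in all 3 pairs (adjusted p = 0.0586 in edgeR). Of 8 epithelial genes 1 was called higher (Cldn7 at 0.30), and 4 had an unadjusted p under 0.05 in edgeR, against 19.4% of all genes tested. All 8 fold changes were above 0, from 0.03 to 0.30, with a median of 0.11. The part of these shifts in the level of Herpud1 was not tested. In sorted bulk cells, fewer cells that express a gene and less RNA per cell cannot be told apart.

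For the chaperones, as for nearly all genes tested, the range over the culture occasions was wider than the difference between the populations. For each gene, the mean log2 CPM of both libraries of an occasion was taken, and the range over the 3 occasions was wider than the size of the fold change for 37 of 37 members and for 95.4% of all genes tested. This range had a median of 1.42-fold for the members and 1.37-fold for all genes. It was 1.14-fold to 2.13-fold for the cytosolic and mitochondrial genes other than Hspb1 and 1.13-fold to 2.496-fold for the ER genes. These values are descriptions, since the libraries of 1 occasion share a culture. A range of 3 means and the size of 1 averaged difference are unlike measures, and the range tends to be the larger. The counts are therefore not a test.

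Occasion 2 was the highest for 26 of 37 members, against 39.8% of all genes tested, with 5 members highest on occasion 1 and 6 on occasion 3. In the cytosolic and mitochondrial set this was 12 of 19 genes, led by Hspe1 (2.13-fold from lowest to highest occasion) and Hspd1 (1.80-fold). The stress-inducible Hspa1b went the other way and was lowest on occasion 2 (1.48-fold), as were Dnajb4 (1.89-fold), Hspa4l (1.56-fold), Bag3 (1.198-fold), Dnajb1 (1.14-fold) and the barely detected Hspb1. Occasion 2 of Dnaja1 was level with occasion 3. In the ER set it was 14 of 18 genes, led by Herpud1 (2.496-fold), Sdf2l1 (1.92-fold), Creld2 (1.87-fold) and Calr (1.75-fold). Xbp1 and Sel1l were lowest on occasion 2, at 1.35-fold and 1.28-fold.

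On occasion 2 some other lists stood apart as well. The summed S phase genes were at 2679 and 2341 CPM in the acLDL-low and acLDL-high library of occasion 2, against 1058 to 1432 CPM on the other occasions. The summed immediate early genes were at 4399 and 4375 CPM, against 1690 to 3162 CPM. All 13 TRiC and prefoldin genes tested were also highest on occasion 2. So were 18 of 28 other cytosolic chaperones, 8 of 11 mitochondrial unfolded protein response genes and 14 of 17 translocon genes. The lists nearest to the ER set differed, with 7 of 18 other ER folding genes and 6 of 17 other ERAD genes highest on occasion 2. More of these were highest on occasion 3 (10 and 11). Of the 8 sensors and proteases, 1 was highest on occasion 2 and 6 on occasion 3. What set the occasions apart is not given in the sources used here, and the part of these lists in the chaperone levels was not tested.

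**Figure D4:**
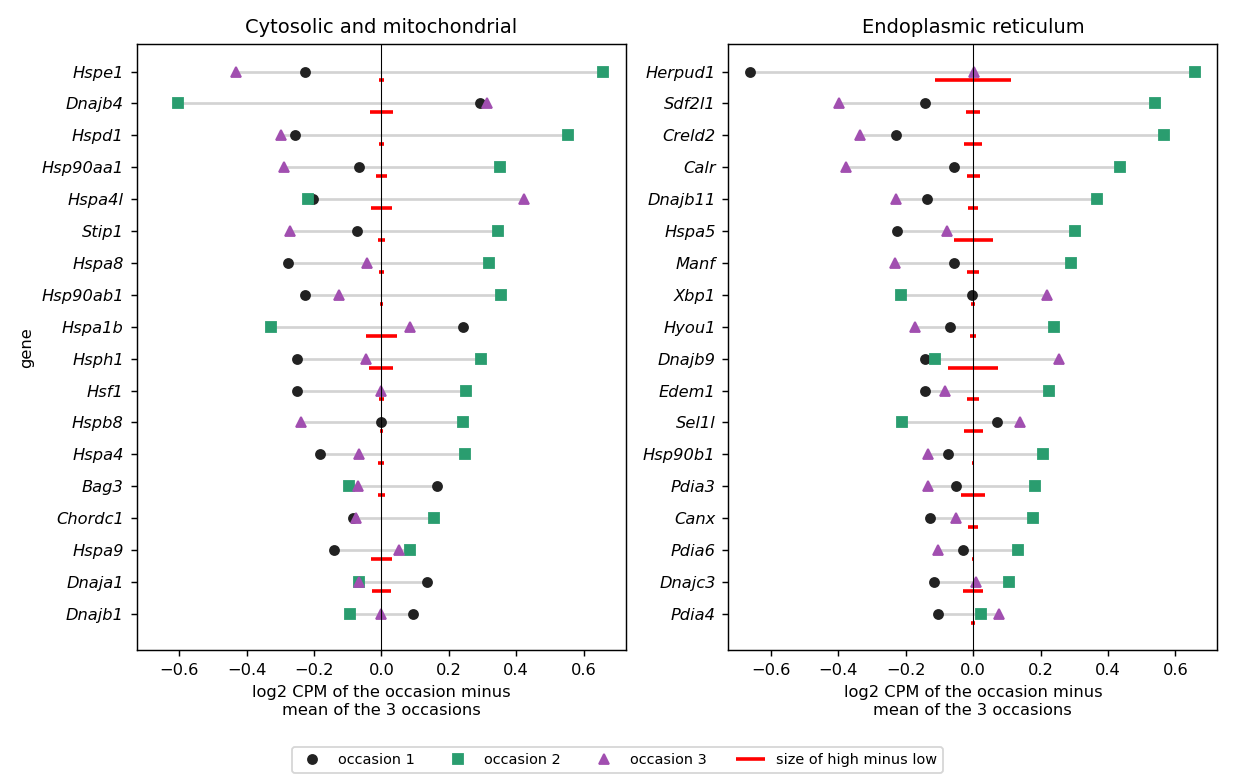
Mean log2 CPM of each occasion (symbols, both libraries averaged) minus the mean of the 3 occasions, for 18 cytosolic and mitochondrial genes (left, without Hspb1) and 18 ER genes (right), with the size of the fitted difference between populations as a red bar centred on 0. Occasion 2 (green squares) is the rightmost symbol for 26 genes, and every red bar is shorter than the spread of its symbols.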

How the data were processed

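RNA was measured in 3 acLDL-high and 3 acLDL-low libraries, paired by occasion. Per the labels, libraries were made with a stranded polyA kit and read as pairs of 50 bases. The submitters' notes name STAR 2.5.2a, featureCounts 1.4.3-p1, DESeq2 1.20.0 and mm10. The deposited values used here are raw counts of reads per gene, made by the authors. From the table of the authors' own comparison (mean levels, fold changes, p-values), gene identifiers and names alone were read, to select protein-coding genes.

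Counts were tested with edgeR 4.0.16 in R 4.3.3 (quasi-likelihood, TMM scaling, filterByExpr, Benjamini-Hochberg adjustment over 12572 genes), acLDL-high minus acLDL-low, with the replicate number as a block, as the study's methods included it. The labels give 3 separate occasions, and same-numbered libraries deviated together from their group means (correlations 0.795, 0.846 and 0.799, against -0.557 to -0.0882 for other numbers). Log2 CPM used a prior count of 2. No 2 libraries agreed within sampling noise. P-values and intervals rest on the spread between 3 pairs from 1 sub-clone, moderated for each gene toward that of all genes tested. Members and lists were chosen with earlier results of these data known. Values per library are given for called members, Hsf1, Xbp1, Hspa1a, Hspa1b and, per compartment, the members highest per kilobase, with the largest and smallest fold change, and with the widest occasion range. The values of Hspa8, Hspe1 and Dnajb9, and genes of the other lists that were not called, were added after values were seen. Positions, exon lengths and shared 50-base stretches came from GENCODE M21, in which 53274 of 53379 identifiers were found. The tests were tried on simulated data. Alternatives were no block, DESeq2 size factors, DESeq2 1.42.0, other filters, all genes, removal of the GC trend, and leaving out each replicate.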

Additional observations from a re-analysis of the deposited data

How the results depend on the processing

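Of 10 alternatives, 7 called Herpud1 lower and 3 did not (no block, without replicate 1 and without replicate 3). Without the replicate block, 0 genes were called in either direction by edgeR, 45 of 12329 had an unadjusted p under 0.05, and 0 ER members were called lower, while the medians of both sets kept their values within the spread of the pairs. Leaving out 1 replicate gave 112 to 602 genes called higher and 14 to 267 lower, 0 to 1 ER members called lower, and 0 to 1 cytosolic members called higher (Hspb1 without replicate 1, from 94 counts in all). Genes called higher were 669 and lower 263 with no low-count filter, and 103 were called lower by DESeq2. No member other than Herpud1 and Hspb1 was called in any alternative. The sign of a member that was not called changed in 41 of 369 refits, over 23 members, with a size of at most 0.22. Ero1lb, not called in the report, was called with DESeq2 size factors (adjusted p = 0.0431), with no low-count filter (0.0125), over all genes of the table (0.0384) and without replicate 1 (0.0180). Sec61g was called with no low-count filter (0.0273) and without replicate 2 (0.0038), Cryab with no low-count filter (0.0479), Atf5 without replicate 1 (0.0343) and Dnajc10 without replicate 2 (0.0445). With 3 pairs, shifts of a few percent in single genes cannot be resolved.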
